A study of Mus musculus with 12 samples.

Results

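Footprints were compared with RNA in unperturbed B16F10 cells, a mouse melanoma line, as the log2 ratio of ribosome-protected fragments (RPF) to total RNA. The comparison used the control cells only and covered protein-coding genes with 10 or more counts in all 6 control libraries, which kept 10524 of 21974 protein-coding genes. The control cells (shCtr) carried a lentiviral short hairpin RNA with no intended target, delivered to wild-type B16F10 cells, and the other cells of the study (shOSGEP) carried hairpin #2 against Osgep, the catalytic subunit of the KEOPS complex that makes the tRNA modification t6A. Each cell type had 3 replicates, each with 1 RPF and 1 total RNA library, so that 6 of the 12 libraries entered the ratio and the 6 shOSGEP libraries served only for values side by side. The study's methods give 3 separate transductions for its experiments in general. The labels of these libraries do not say which transduction a replicate came from. The p-values rest on the spread between the 3 samples, pooled in part over all genes. Elongation was stopped with cycloheximide in confluent dishes, and a bead-bound puromycin analogue pulled down the ribosomes before short protected fragments were sequenced.

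A ribosome covers a short stretch of the mRNA that it translates, so reads of the protected fragments follow the ribosomes on coding sequence, whereas total RNA reads follow the transcript. The ratio of both is commonly read as the ribosome load per mRNA, or translational efficiency, and depends on how often ribosomes start, how long they take and whether a transcript is in the translated pool. Known contrasts in it include mRNAs held back by reading frames upstream of the start codon, such as Atf4, ferritin mRNAs held back by iron regulatory proteins, mRNAs for secreted proteins, which are translated at the endoplasmic reticulum, and mitochondrial mRNAs, which are read by the organelle's own ribosomes.

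A protected fragment is short, so whether its letters occur at 1 place or at many places in the genome bears on the gene it is counted for. The share of 28-base coding windows with an exact match outside the gene was therefore counted for every gene on GRCm38, the mouse build used here for sequences (GENCODE M21 gene models). The examples below are the first coding windows that no intron splits in genes that recur in the results, first for 5 genes whose letters are found again and then for 3 genes whose letters are not. Capitals mark the start codon where the window holds it.
Gapdh: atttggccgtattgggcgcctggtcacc
Rpl10: ttaccggtattgtaagaacaagccatac
Ftl1: ATGacctctcagattcgtcagaattatt
Cycs: ATGggtgatgttgaaaaaggcaagaaga
Amd1: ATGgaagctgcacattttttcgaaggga
mt-Nd1: GTGttctttattaatatcctaacactcc
B2m: ATGgctcgctcggtgaccctggtctttc
Ctsd: ATGaagactcccggcgtcttgctgctca
The Gapdh window (chr6:125163409-125163436, minus strand) occurred at 47 other places. The Rpl10 window (chrX:74271660-74271687, plus strand) occurred at 8 other places, among them Rpl10-ps3, and that of Ftl1 (chr7:45459604-45459631, minus strand) at 7, among them Ftl1-ps1. The windows of Cycs (chr6:50565633-50565660, minus strand) and Amd1 (chr10:40301831-40301858, minus strand) each occurred at 3 other places, for Amd1 among them Amd2. Those of mt-Nd1 (chrM:2751-2778, plus strand), B2m (chr2:122147738-122147765, plus strand) and Ctsd (chr7:142387777-142387804, minus strand) occurred at 0 other places. The sources used here do not say how reads with several matches were counted.

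The RPF libraries held 22021763, 12850642 and 40343700 counts in replicates 1, 2 and 3, of which 6572939, 6244609 and 17017589 were on protein-coding genes and 44.3, 34.5 and 26.8% on ribosomal RNA. The total RNA libraries held 59059178, 58458251 and 46717840 counts, with 53774172, 53830941 and 43672469 on protein-coding genes. RPF counts were the smaller of both, and replicate libraries differed by far more than sampling noise, with chi-square per degree of freedom from 36.2 to 104.9. The libraries were amplified, and random bases were trimmed from the RPF reads without a statement that they served as molecular identifiers, so counts are not counts of molecules. All 10 melanocyte markers (Mitf, Sox10, Tyr, Tyrp1, Dct, Pmel, Mlana, Slc45a2, Slc24a5 and Gpr143) passed 10 counts in every RNA and RPF library, with a summed RNA level of 11208 to 18637 CPM (counts scaled to a common protein-coding total in each library). Summed RNA levels of 6 markers each were 0.242 to 0.321 CPM for keratinocytes (Krt5, Krt15 and Trp63 at 0), 0 to 0.0687 for T cells (Cd3d, Cd3e, Cd3g, Cd8a and Ptprc at 0), 3.08 to 6.19 for macrophages, 1.603 to 3.515 for endothelial cells and 7.21 to 9.67 for fibroblasts (Col3a1 at 0).

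Most genes had footprints close to their RNA. The median of the mean log2 ratio was -0.05 (SD over genes 0.67), with medians of -0.08, -0.06 and -0.01 in replicates 1, 2 and 3, and 93.2% of genes lay within 1 log2 unit of 0. The middle 50% of genes ran from -0.36 to 0.27. Of the rest, 336 genes were above 1 and 384 below -1, and 90 were above 2 and 41 below -2. The 3 replicates shared a sign in 6207 genes (59.0%), and the ratios correlated across genes at Pearson r of 0.73 to 0.78 between replicates, which is a description over genes that share libraries and are not independent. In edgeR's quasi-likelihood test with the replicate as a block, 3202 of 10524 genes (30.4%) differed from 0 at a Benjamini-Hochberg adjusted p under 0.05, 1347 (12.8%) higher and 1855 (17.6%) lower in RPF than in total RNA. All such calls are relative to the library average, since the ratio is set by totals and a change shared by all genes would not be seen in it. Without the block 999 genes were called, all of them among the 3202. Counts of higher and lower members in the lists below are to be read beside these shares of 12.8% and 17.6%. Every fold or level is in CPM over protein-coding counts, with the SE and adjusted p from that fit unless another error is named. The fit draws each gene's spread toward a trend over all genes (18.4 prior degrees of freedom). An SE can therefore be below what the gene's own spread alone would give. For Tent5a the SE was 0.80, while the SD of the 3 single ratios was 3.18. An SE of a mean of 3 is by itself smaller than such an SD, so only part of that gap comes from the fit.

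The 29 gene lists spread between a median of -2.45 for the 13 mitochondrially encoded genes and 0.35 for 50 chromatin writers and remodellers. In 13 lists the median was below that of all genes in each of the 3 replicates, and in 3 lists (chromatin writers and remodellers, SR and hnRNP splicing factors, interferon and antigen presentation) it was above in each. Replicate 3 gave the lowest of the 3 medians in 19 of 29 lists and the highest in 6, so the level of a list varied with the library as well as with the genes. Transcripts also differ in how much of them is coding. With RPF taken per coding length, RNA per transcript length and all genes centred on 0 (called per-length below), the median of 11 of the 29 lists changed side of that of all genes, among them chromatin writers, from 0.35 to -0.15.

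**Figure D1:**
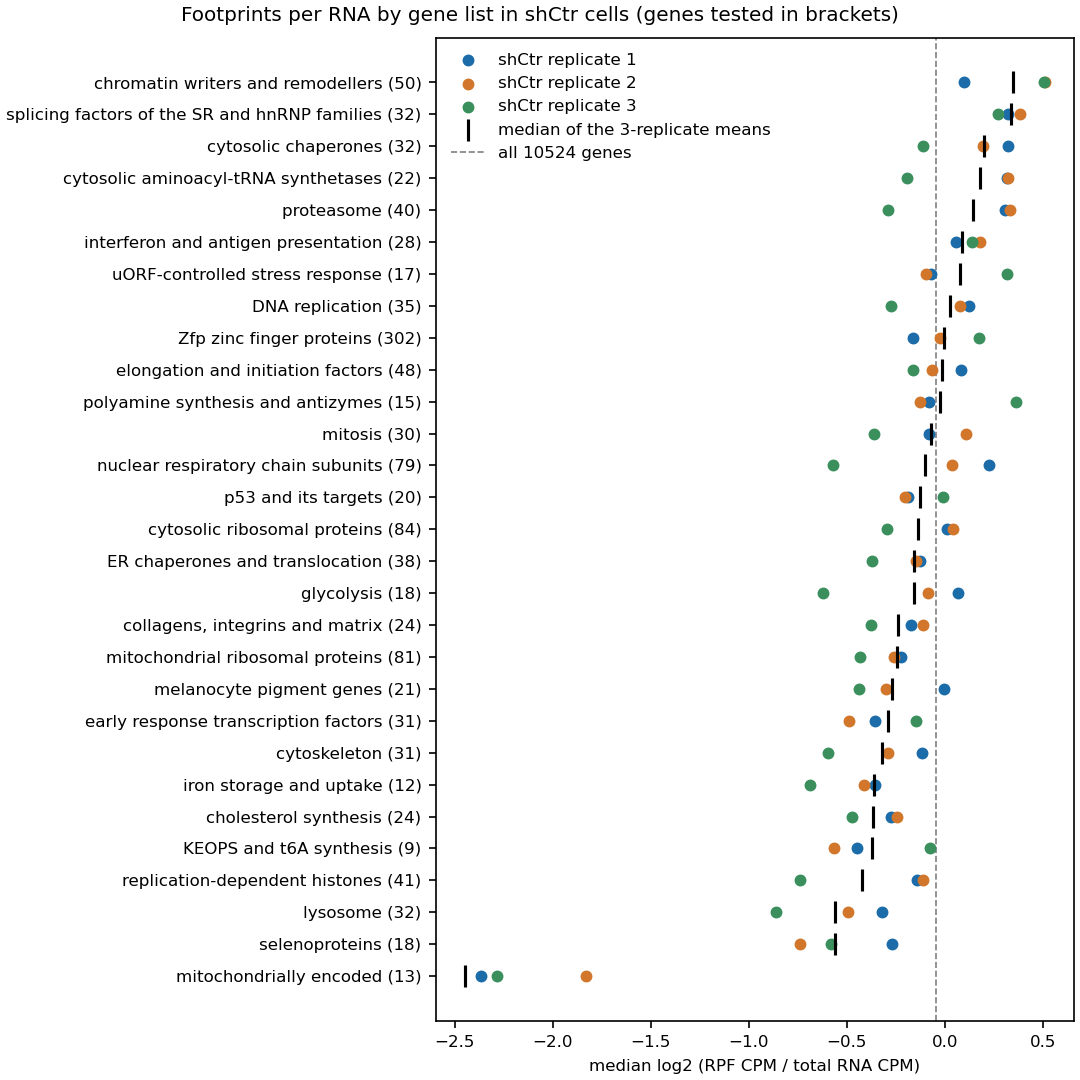
Median log2 ratio of RPF CPM to total RNA CPM (horizontal axis) for 29 gene lists (vertical axis, number of genes tested in brackets) in shCtr cells; dots are the 3 replicates, bars the median of the 3-replicate means and the dashed line the median of all 10524 genes. Mitochondrially encoded genes stood at -2.45, selenoproteins and lysosomal genes at -0.56, and chromatin writers and SR and hnRNP splicing factors at 0.35 and 0.34 (per-length -0.15 and 0.55).

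The mitochondrial genome encodes 13 subunits of the respiratory chain and ATP synthase, and all 13 passed the filter. Of these, 11 were called lower in RPF than in RNA and 1 higher, with list medians of -2.36, -1.83 and -2.29 in the 3 replicates. As a share of protein-coding counts, the 13 genes took 2.58, 3.47 and 2.71% of RNA but 0.656, 1.03 and 0.837% of RPF. mt-Nd1, a complex I subunit with no 28-base window elsewhere in the genome, had 356, 688 and 523 RPF CPM against 2944, 4304 and 3344 RNA CPM, a log2 ratio of -2.79 ± 0.22 (adjusted p = 1.1e-08). mt-Co1, the catalytic subunit of cytochrome c oxidase, had 2343, 3202 and 3266 RPF CPM against 8492, 11114 and 8157 RNA CPM (-1.66 ± 0.23, adjusted p = 2.1e-05). In both genes every RPF value was below every RNA value.

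At the low end, mt-Atp8, a small ATP synthase subunit, had 8.82, 34.6 and 10.2 RPF CPM against 573, 693 and 696 RNA CPM (-5.46 ± 0.32, adjusted p = 4.5e-11). mt-Nd4 had 178, 450 and 144 against 2270, 3422 and 2564 (-3.59 ± 0.26) and mt-Nd3 had 8.52, 48.4 and 12.3 against 108, 175 and 110 (-2.84 ± 0.25), both complex I subunits. Replicate 2 was the least low in all 3 of these genes. mt-Co2, a further oxidase subunit, had 370, 780 and 425 RPF CPM against 605, 709 and 719 RNA CPM and missed the threshold (-0.44 ± 0.21, adjusted p = 0.12). mt-Nd6, the complex I subunit that is transcribed from the opposite strand to the other 12, went the other way, with 838, 1240 and 1217 RPF CPM against 170, 186 and 178 RNA CPM (2.61 ± 0.21, adjusted p = 1.1e-08). Whether counting used strand is not stated, so reads of the opposite strand cannot be told apart here. Of the 13 genes, 12 had at least 5% of their windows elsewhere in the genome, which leaves mt-Nd1 as the member whose letters are unique.

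**Figure D2:**
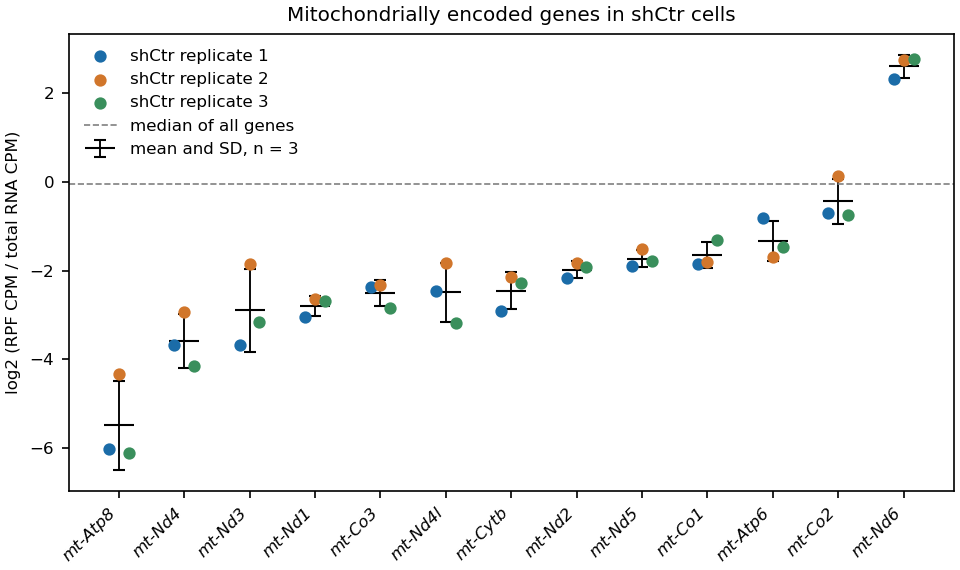
Log2 ratio of RPF CPM to total RNA CPM (vertical axis) for the 13 mitochondrially encoded genes (horizontal axis) in shCtr cells; dots are replicates, bars the mean and SD of 3, and the dashed line the median of all genes. mt-Atp8 was lowest and mt-Nd6 was the single gene well above the line.

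Nuclear genes for the same complexes did not share that position. Of 87 nuclear respiratory chain subunits 79 were tested, with medians of 0.22, 0.03 and -0.57 in the 3 replicates, 12 higher and 22 lower. The members ran from a mean of -4.72 to one of 2.29. Cycs, cytochrome c, had 13.7, 20.2 and 17.2 RPF CPM against 384, 463 and 487 RNA CPM (-4.72 ± 0.22, adjusted p = 1.5e-12), and all of its coding windows are found elsewhere. Atp5d, an ATP synthase subunit with none found elsewhere, had 85.3, 69.2 and 43.5 against 282, 254 and 252 (-2.05 ± 0.19, adjusted p = 1.4e-07). Atp5j2, another ATP synthase subunit, had 467, 202 and 162 against 52.6, 51.0 and 48.5 (2.29 ± 0.23, adjusted p = 3e-07) and Atp5k had 54.0, 61.2 and 55.5 against 21.01, 16.1 and 17.4 (1.65 ± 0.17). In Atp5j2 and Atp5k, 48.3% and 48.7% of the coding windows are shared. The 36 subunits with under 5% shared windows had a median of 0.06, with 5 higher and 6 lower.

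The 81 mitochondrial ribosomal proteins, which build the ribosome that translates the mitochondrial mRNAs, were all tested and were below the median of all genes in each replicate (-0.23, -0.26 and -0.43), with 8 higher and 31 lower. Their 52 members with under 5% shared windows had a median of -0.19, 5 higher and 19 lower. Mrpl54, with none shared, had 11.9, 10.9 and 13.6 RPF CPM against 34.0, 34.4 and 34.6 RNA CPM (-1.50 ± 0.18, adjusted p = 3.3e-06). Mrpl23 had 4.11, 2.72 and 5.58 against 20.9, 21.4 and 21.02 (-2.33 ± 0.23), and all of its windows are shared. Mrpl47 and Mrps14 were the highest members, at 0.78 ± 0.18 and 0.83 ± 0.19, and without replicate 1 Mrps14 was at 0.56 and no longer called.

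Cytosolic ribosomal proteins, the protein part of the ribosome that makes most footprints, had a median near that of all genes but members far to either side. Of 87 genes 84 were tested, with medians of 0.01, 0.04 and -0.30, 15 higher and 25 lower. All 84 had at least 5% of their coding windows elsewhere, and the median member had 97.1%. Rpl35 had 2.89, 2.40 and 3.11 RPF CPM against 597, 649 and 567 RNA CPM, the lowest ratio of all genes tested (-7.72 ± 0.27, adjusted p = 1.4e-14). Rpl29 had 38.8, 43.6 and 29.5 against 703, 733 and 672 (-4.26 ± 0.22). In contrast, Rpl22, with 61% shared windows, had 364, 347 and 307 against 107, 106 and 92.5 (1.74 ± 0.18, adjusted p = 5.2e-07). Rps6 and Rplp0, of the small and large subunit, were near the average at 0.32 ± 0.20 (adjusted p = 0.23) and 0.33 ± 0.22 (adjusted p = 0.26).

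Translation factors lay around the average. All 48 elongation and initiation factors were tested, with a median of -0.02 (per-length -0.16). Of these, 5 were higher and 9 lower (10.4% and 18.8%), near the shares of all genes. Eef1a1, which brings aminoacyl-tRNA to the ribosome, had 8142, 7423 and 3767 RPF CPM against 8718, 6846 and 7493 RNA CPM and missed the threshold (-0.32 ± 0.25, adjusted p = 0.34), as did Eef2, the translocation factor (0.36 ± 0.21, adjusted p = 0.22), and Pabpc1, the cytoplasmic poly(A)-binding protein (-0.03 ± 0.21, adjusted p = 0.94). Tpt1, with all coding windows shared, was lower at -1.24 ± 0.21 (adjusted p = 0.00018), with 391, 613 and 372 RPF CPM against 1082, 1081 and 1008 RNA CPM. Eif5b, which joins the subunits at the start codon, had 217, 362 and 262 against 108, 112 and 139 (1.20 ± 0.19, adjusted p = 0.00011). Eif4a2, a helicase subunit with 43% shared windows, was at 1.63 ± 0.24. Eif2a, an alternative initiation factor, was at -0.76 ± 0.22 and at -0.35, no longer called, without replicate 3. Of the 22 cytosolic aminoacyl-tRNA synthetases and their scaffold proteins, 19 were above the median of all genes, with 3 higher, 1 lower and medians of 0.32, 0.32 and -0.19, and the median of 0.18 became -0.41 per-length. The scaffold Aimp1 had 103, 91.1 and 57.4 RPF CPM against 33.4, 31.04 and 30.2 RNA CPM (1.37 ± 0.18, adjusted p = 9e-06), and Wars, the tryptophan enzyme, was lower at -0.60 ± 0.16.

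The 9 genes of KEOPS and t6A synthesis had a median of -0.37 (per-length 0.80) with 0 higher and 1 lower. Osgep itself had 20.8, 19.2 and 13.8 RPF CPM against 15.2, 16.2 and 16.9 RNA CPM in these control cells, at the average (0.13 ± 0.19, adjusted p = 0.65). Osgepl1, the mitochondrial counterpart of Osgep, was the lower one, with 7.15, 11.1 and 12.3 against 16.5, 17.5 and 20.95 (-0.87 ± 0.20, adjusted p = 0.0026).

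Lysosomal genes had the largest share of lower members among the nuclear lists, with a median of -0.56 and of -0.55 per-length. Of 35 genes 32 were tested, 21 were lower and 0 higher, against 17.6% and 12.8% of all genes, and medians were -0.32, -0.49 and -0.86 in the 3 replicates. All but 1 of the 32 had under 5% shared windows. Ctsd, the aspartic protease cathepsin D, had 684, 817 and 289 RPF CPM against 1536, 1746 and 923 RNA CPM (-1.31 ± 0.21, adjusted p = 0.0001). Glb1, the lysosomal beta-galactosidase, had 58.0, 53.2 and 31.6 against 118, 89.7 and 77.0 (-1.02 ± 0.17, adjusted p = 0.00013). In each of these genes too every RPF value was below every RNA value. At the top of the list Sgsh, a heparan sulfate sulfatase, was at -0.01 ± 0.17 (adjusted p = 0.96) and Cd63, a tetraspanin of lysosome-related membranes with 74% shared windows, at 0.57 ± 0.21 (adjusted p = 0.052).

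Of 38 endoplasmic reticulum chaperones and translocation factors 3 were higher and 11 lower (28.9%, against 17.6% of all genes), with a median of -0.16 (per-length -0.02). Hspa5, the main chaperone there, had 1769, 1981 and 567 RPF CPM against 1240, 1550 and 1019 RNA CPM and no call (0.01 ± 0.25, adjusted p = 0.97), since replicates 1 and 2 were above 0 and replicate 3 below. Ssr2, a subunit of the translocon-associated complex, had 95.8, 98.6 and 37.2 against 205, 237 and 155 (-1.47 ± 0.19, adjusted p = 1.1e-05). Dnajb9, with 47% shared windows, was at -1.32 ± 0.19. Srp14, a subunit of the cytosolic signal recognition particle, was at 0.83 ± 0.16. Of 37 collagen, integrin and matrix genes 24 were tested, with a median of -0.24, 1 higher and 5 lower, a share of 20.8% that is close to the 17.6% of all genes. Cd44, the hyaluronan receptor, had 538, 494 and 299 RPF CPM against 898, 949 and 720 RNA CPM (-0.98 ± 0.20, adjusted p = 0.0011).

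All 24 cholesterol synthesis genes, most of them for enzymes in the endoplasmic reticulum membrane, were tested, with a median of -0.37 (per-length -0.02), 0 higher and 9 lower. Msmo1, a sterol methyl oxidase, had 29.8, 35.9 and 14.5 RPF CPM against 47.3, 51.9 and 44.9 RNA CPM (-0.94 ± 0.20, adjusted p = 0.0014). Of 24 melanocyte pigment genes 21 were tested, with medians of -0.01, -0.30 and -0.44, 1 higher and 7 lower. Pmel, the fibril protein of melanosomes, had 2317, 2700 and 652 RPF CPM against 3159, 3779 and 1877 RNA CPM (-0.82 ± 0.24, adjusted p = 0.015). Tyrp1 had 5540, 5765 and 1802 against 5164, 7110 and 4086 (-0.46 ± 0.25, adjusted p = 0.17) and Dct had 5385, 4819 and 3126 against 3978, 3936 and 2814 (0.29 ± 0.22, adjusted p = 0.32), both enzymes of melanin synthesis. Mitf, the transcription factor of the lineage, was at -0.58 ± 0.19 (adjusted p = 0.028, per-length 0.16) and the melanocortin receptor Mc1r at 0.54 ± 0.20 (adjusted p = 0.046). Both calls were lost when single replicates were left out, at -0.57 without replicate 1 and -0.52 without replicate 2 for Mitf, and at 0.31 to 0.67 for Mc1r. RPF CPM of Pmel and Tyrp1 was lowest in replicate 3, as was their RNA.

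Upstream reading frames are a well known brake on initiation, and their letters in 2 of the genes are given with start and stop codons in capitals.
Atf4: ATGgcgtatTAG
Amd1: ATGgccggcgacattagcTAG
The Atf4 frame (chr15:80255582-80255593, plus strand, 12 bases) starts at base 399 of a transcript whose main frame starts at 595, and the same leader has ATG frames of 111 bases at 120 and of 180 bases at 498, the last of which runs into the main frame. The Amd1 frame (chr10:40302155-40302175, minus strand, 21 bases) starts at base 12, ahead of a main start at 329. Of 19 stress response genes with such control 17 were tested, with medians of -0.07, -0.10 and 0.32, 5 higher and 2 lower, and 12 of the 17 were above the median of all genes. Atf4 had 151, 161 and 282 RPF CPM against 264, 272 and 304 RNA CPM (-0.56 ± 0.19, adjusted p = 0.035), and the call was lost at -0.44 without replicate 1 and at -0.46 without replicate 2. Ddit3, a target of Atf4, had 25.4, 15.2 and 31.3 against 15.4, 8.01 and 10.3 (1.10 ± 0.20, adjusted p = 0.0004) and Cebpb had 31.5, 12.97 and 28.7 against 19.8, 6.24 and 7.62 (1.22 ± 0.22, adjusted p = 0.00034). Ppp1r15a was at 0.26 ± 0.23 (adjusted p = 0.42) and Slc35a4 at -0.02 ± 0.17 (adjusted p = 0.95). Exons of Ddit3 (Mars), Cebpb (Tmem189), Ppp1r15a (Tulp2) and Slc35a4 (Apbb3) overlap those of another coding gene, whereas those of Atf4 overlap none. How reads in such exons were counted is not stated. The list's median of 0.08 became -0.16 over the 6 genes whose exons overlap no other gene. The tables count whole genes, so footprints on upstream frames and on the main frame were not separated.

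Of 12 iron storage and uptake genes, 0 were higher and 5 lower, with a median of -0.36. Ftl1, the ferritin light chain, had 424, 260 and 929 RPF CPM against 4034, 4409 and 3440 RNA CPM (-3.08 ± 0.32, adjusted p = 4.8e-07), with 89% of its windows shared. Fth1, the heavy chain, had 820, 817 and 1740 against 1294, 1499 and 1207 and no call (-0.34 ± 0.25, adjusted p = 0.32), since replicate 3 was above its RNA and replicates 1 and 2 below. Tfrc, the transferrin receptor, had 376, 497 and 196 against 496, 559 and 508 (-0.64 ± 0.22, adjusted p = 0.035), and was at -0.28 and no longer called without replicate 3. Ncoa4, the receptor for ferritin turnover, was at -1.39 ± 0.18 with 97% shared windows.

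Of 16 polyamine genes 15 were tested, with a median of -0.02, 2 higher and 5 lower. Amd1, the S-adenosylmethionine decarboxylase, had 29.2, 35.9 and 44.7 RPF CPM against 155, 176 and 196 RNA CPM (-2.28 ± 0.17, adjusted p = 3.4e-09), and its copy Amd2 is described with the copies. Odc1, ornithine decarboxylase, was at 0.22 ± 0.19 (adjusted p = 0.41), its inhibitor Oaz1, which needs a frameshift, at 0.47 ± 0.19 (adjusted p = 0.065), and the antizyme inhibitor Azin1 at -0.12 ± 0.16 (adjusted p = 0.61). Peg10, the other gene read through a frameshift among the named genes, had 580, 818 and 1098 RPF CPM against 566, 547 and 788 RNA CPM (0.36 ± 0.20, adjusted p = 0.18).

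Selenoproteins, which recode a UGA stop codon as selenocysteine, had a median of -0.56 (per-length -0.19) over 18 tested of 24, with 0 higher and 9 lower. Gpx4, the phospholipid peroxidase, had 63.1, 40.8 and 49.3 RPF CPM against 325, 284 and 285 RNA CPM (-2.56 ± 0.19, adjusted p = 2.2e-09), with 85% of its windows shared. Selenot had 108, 99.4 and 120 against 211, 258 and 246 (-1.13 ± 0.18, adjusted p = 8.8e-05), and its per-length value was reversed at 0.41. The 15 selenoproteins with under 5% shared windows had a median of -0.42, with 7 lower, and the list's 3 replicate medians were -0.27, -0.74 and -0.58. Txnrd2 and Selenoh were the highest, at 0.40 ± 0.17 (adjusted p = 0.077) and 0.20 ± 0.20 (adjusted p = 0.48).

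Single replication-dependent histones were at both ends. Of 67 genes 41 were tested, with medians of -0.14, -0.11 and -0.74. Of these, 6 were higher (14.6%, close to the 12.8% of all genes) and 17 lower (41.5%, against 17.6%). In 38 of the 41 at least 5% of the windows were shared. Hist2h3b had 4.87, 25.1 and 4.23 RPF CPM against 507, 402 and 446 RNA CPM (-5.74 ± 0.41, adjusted p = 1.5e-09) and Hist1h3f had 34.7, 99.9 and 13.8 against 473, 531 and 492 (-3.76 ± 0.35). Hist2h2bb, with 10% shared windows, had 764, 240 and 305 against 120, 131 and 143 (1.53 ± 0.27, adjusted p = 0.00024). Of the 3 members with under 5% shared windows, 0 were called. Their messages end in a stem loop without a poly(A) tail. The study describes poly(A) selection for RNA sequencing that it lists as a separate series, and whether the total RNA libraries used here were selected in that way is not stated.

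Genes for chromatin writers and remodellers stood at the high end by CPM, with a median of 0.35, but at -0.15 per-length. All 50 were tested, 46 were above the median of all genes, 14 were higher and 0 lower, and medians were 0.10, 0.51 and 0.50. The median coding length of the list was 5744 nt against 1413 nt for all genes. Kat6b, a histone acetyltransferase, had 63.6, 53.5 and 50.01 RPF CPM against 28.1, 29.8 and 28.1 RNA CPM (0.95 ± 0.17, adjusted p = 0.00025) and Baz2b, a bromodomain protein, had 87.2, 124 and 99.8 against 54.1, 55.6 and 56.0 (0.90 ± 0.16, adjusted p = 0.00038). In both, every RPF value was above every RNA value. Ep300 and Smarca4 were the lowest members, at -0.31 ± 0.19 (adjusted p = 0.23) and -0.09 ± 0.19 (adjusted p = 0.76).

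SR and hnRNP splicing factors had 32 of 33 genes tested, with medians of 0.32, 0.38 and 0.27, 12 higher and 2 lower, and a per-length median of 0.55. Hnrnpm had 529, 630 and 417 RPF CPM against 146, 173 and 176 RNA CPM (1.66 ± 0.20, adjusted p = 4e-06) and Hnrnph3 had 17.5, 14.4 and 23.4 against 5.71, 5.57 and 7.99 (1.51 ± 0.20, adjusted p = 9.4e-06). Hnrnpa3, with 98% shared windows, was lower at -0.73 ± 0.21 (at -0.77 and not called without replicate 2), and Srsf3 was not called at -0.41 ± 0.19 (adjusted p = 0.1). The 16 members with under 5% shared windows had a median of 0.44, 8 higher and 1 lower. Genes named Zfp for zinc finger proteins had 302 of 394 members tested, with a median of -0.01 (per-length -0.07). Their replicate medians spread from -0.16 to 0.18. Of the 302, 47 were higher and 40 lower (15.6% and 13.2%), near the shares of all genes. Zfp654, with no shared window, had 211, 241 and 108 RPF CPM against 32.1, 38.0 and 43.6 RNA CPM (2.24 ± 0.23, adjusted p = 3.7e-07). Zfp36l1, which binds AU-rich elements of unstable mRNAs, had 36.7, 30.7 and 45.3 against 123, 112 and 147 (-1.77 ± 0.16, adjusted p = 9.8e-08), with 29% shared windows.

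Of 44 proteasome genes 40 were tested, with medians of 0.31, 0.33 and -0.29 in the 3 replicates, and the median of 0.14 became -0.25 per-length. Of these, 5 were higher and 6 lower (12.5% and 15.0%), near the shares of all genes. Adrm1, a ubiquitin receptor with 93% shared windows, had 35.6, 26.9 and 30.4 RPF CPM against 156, 160 and 143 RNA CPM (-2.31 ± 0.17, adjusted p = 3.4e-09), and Psmb2, a core subunit, was at -0.94 ± 0.21. Of 34 cytosolic chaperones 32 were tested, with medians of 0.32, 0.20 and -0.11 in the 3 replicates, 9 higher and 3 lower, and the median of 0.20 became -0.05 per-length. Pfdn6, a prefoldin subunit with 26% shared windows, had 110, 66.0 and 84.0 against 42.7, 38.1 and 37.2 (1.11 ± 0.17, adjusted p = 5.9e-05). Bag3, a co-chaperone of stress, had 29.4, 25.5 and 33.6 against 66.5, 69.4 and 72.3 (-1.24 ± 0.17, adjusted p = 1.5e-05).

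Glycolysis and the cytoskeleton hold many genes with copies elsewhere. Of 20 glycolysis genes 18 were tested, with a median of -0.16, 1 higher and 6 lower, and the 8 with under 5% shared windows had a median of 0.06, 1 higher and 1 lower. Gapdh had 320, 141 and 251 RPF CPM against 4698, 4978 and 5328 RNA CPM (-4.47 ± 0.28, adjusted p = 1.4e-10) and Pgk1 had 593, 499 and 300 against 1238, 1137 and 1167 (-1.40 ± 0.22, adjusted p = 8.5e-05), both with all windows shared. All 31 cytoskeleton genes were tested, with a median of -0.32, 4 higher and 10 lower, and the 12 with under 5% shared windows had a median of -0.07, 2 higher and 1 lower. Tmsb10, an actin-binding peptide with all windows shared, had 429, 252 and 243 against 1265, 892 and 1085 (-1.85 ± 0.21, adjusted p = 1.5e-06). Actb, with 50% shared windows, was at -1.02 ± 0.23 (at -1.01 and not called without replicate 2). Vim, with 1% shared, had 1926, 1703 and 1229 against 1850, 1526 and 1653 (-0.07 ± 0.21, adjusted p = 0.83).

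Regulators of growth gave mixed values. Of 38 early response transcription factors 31 were tested, with a median of -0.29 (per-length 0.09), 4 higher and 10 lower. Id2, an inhibitor of differentiation, had 43.4, 40.4 and 34.8 RPF CPM against 145, 145 and 137 RNA CPM (-1.86 ± 0.17, adjusted p = 5.1e-08), whereas Myc at -0.28 ± 0.17 (adjusted p = 0.23) and Jun at -0.33 ± 0.17 (adjusted p = 0.14) were not called. Of 24 p53 genes 20 were tested, with a median of -0.13 (per-length 0.46), 2 higher and 5 lower. Trp53, with 37% shared windows, had 103, 91.8 and 52.5 against 190, 171 and 201 (-1.24 ± 0.20, adjusted p = 0.00012). Its ligase Mdm2 had 136, 107 and 162 against 143, 118 and 142 and was not called. Of 30 mitosis genes 3 were higher and 9 lower (median -0.07), with Ccna2, the S and G2 phase cyclin, at -1.34 ± 0.18 from 78.4, 107 and 81.4 RPF CPM against 188, 240 and 247 RNA CPM, and Incenp, a centromere protein, at 0.71 ± 0.16. Of 35 DNA replication genes 2 were higher and 3 lower (median 0.02, per-length -0.28), with Cdt1, the licensing factor, at -0.76 ± 0.16.

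Of 36 interferon and antigen presentation genes 28 were tested, with a median of 0.09 (per-length -0.07). Of these, 4 were higher and 3 lower (14.3% and 10.7%, beside 12.8% and 17.6% of all genes). B2m, the light chain of class I molecules and a secretory protein with no shared window, had 141, 142 and 37.7 RPF CPM against 452, 337 and 360 RNA CPM (-2.05 ± 0.28, adjusted p = 1.7e-05). Every RPF value of B2m was below every RNA value, and replicate 3 was the lowest. Tapbp, which loads peptides on class I molecules, was at -0.71 ± 0.16 (adjusted p = 0.0027). Irf9, a subunit of the interferon-activated transcription factor, had 9.74, 7.37 and 14.5 against 8.39, 3.66 and 3.87 (1.07 ± 0.27, adjusted p = 0.0058), and was at 0.61 and no longer called without replicate 3.

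Sequence that occurs more than once went with the widest ratios. The SD of the mean log2 ratio over genes was 0.58 for 6889 genes with no shared window, 0.52 for 1660 with up to 5%, 0.62 for 620 with 5 to 20%, 0.68 for 911 with 20 to 80% and 1.64 for 426 with more than 80%. The medians of the same groups were -0.04, 0.05, -0.06, -0.14 and -0.36. In the last group 170 genes were lower, 61 higher and 49 beyond 2 log2 units in either direction. The part of read assignment in these ratios was not tested.

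**Figure D3:**
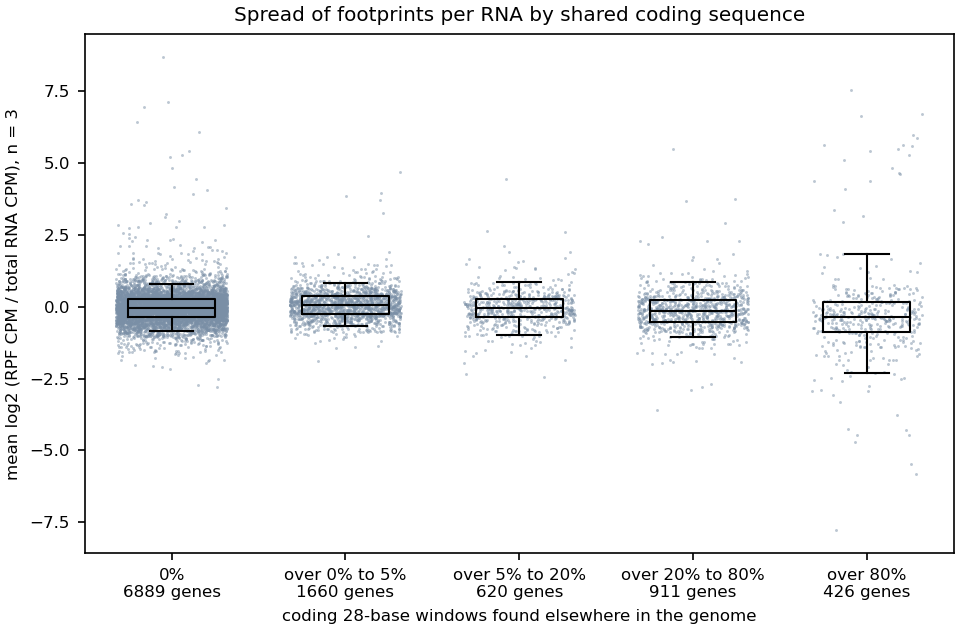
Mean log2 ratio of RPF CPM to total RNA CPM over 3 shCtr replicates (vertical axis) by the share of a gene's 28-base coding windows found elsewhere in the genome (horizontal axis); points are genes, boxes the quartiles with the median, and whiskers the 5th and 95th percentiles. The group over 80% had an SD of 1.64 against 0.58 for genes with no shared window.

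Among called genes with a mean of at least 100 counts in each assay, one sign in all replicates and a symbol that is not a placeholder, the 12 lowest included mt-Atp8, Cycs, Gapdh, Rpl10, Rpl29, Hist1h3f, mt-Nd4, Hist2h2aa1, Ftl1, Hmgb1 and mt-Nd3, with mean log2 ratios from -5.48 to -2.89. In 11 of these 12 more than 80% of the coding windows were shared. The 12 highest were Mettl26, Lars2, Tent5a, Rpl10-ps3, Rpl9-ps6, Usp12, Sap18b, Nutf2-ps1, Mtm1, Eno1b, Ftl1-ps1 and Eif3j2, from 8.67 to 4.09. More than 80% of the windows were shared in 7 of these and none in 4 (Mettl26, Lars2, Tent5a and Mtm1). Together the 12 highest took 2.38, 3.56 and 3.54% of RPF counts on protein-coding genes and 0.0260, 0.0230 and 0.0312% of RNA counts.

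The 4 high genes without shared coding windows had RPF levels far from one replicate to the next. The share covers coding windows on the chromosomes, whereas counts are per whole gene. Matches of untranslated exons, or to sequence outside the chromosomes, are therefore not covered by it. Mettl26, a methyltransferase-like gene, had 6081, 4793 and 17082 RPF CPM against 21.98, 18.1 and 18.7 RNA CPM (8.65 ± 0.39, adjusted p = 1.5e-12). Lars2, the mitochondrial leucyl-tRNA synthetase, had 14137, 23874 and 10003 against 101, 82.7 and 148 (7.13 ± 0.38, adjusted p = 1.6e-11), which was 1.41, 2.39 and 1.00% of RPF counts. Tent5a, a poly(A) polymerase, had 42.4, 1768 and 529 against 7.25, 4.14 and 4.47 (6.32 ± 0.80, adjusted p = 7e-06). The RNA of these 3 genes varied less between replicates than their footprints did. Mtm1, a lipid phosphatase, had 285, 362 and 117 against 8.46, 8.36 and 7.83 (4.81 ± 0.26), and Usp12, a deubiquitinase with 24% shared windows, had 1502, 2949 and 6499 against 62.9, 76.6 and 67.2 (5.47 ± 0.34).

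Several of the highest genes are near-identical copies of other genes, most of them with low ratios (Rpl9, at a mean of 0.42, was not low). The coding sequences of Rpl10 and Rpl10-ps3 (645 nt), Hist2h2aa1 and Hist2h2aa2 (393 nt), Nutf2 and Nutf2-ps1 (384 nt) and Sap18 and Sap18b (519 nt) differed at 0 bases, and those of Amd1 and Amd2 (1005 nt) and of Rpl9 and Rpl9-ps6 (579 nt) at 1 base. Those of Ftl1 and Ftl1-ps1 (552 nt) differed at 2 bases and those of Eno1 and Eno1b (1305 nt) at 8. Rpl10 had 52.8, 25.0 and 26.3 RPF CPM against 761, 724 and 664 RNA CPM (-4.45 ± 0.24), while Rpl10-ps3 had 633, 703 and 259 against 10.7, 7.06 and 13.2 (5.61 ± 0.35). Amd2 had 85.5, 89.8 and 109 RPF CPM against 0.893, 0.855 and 0.985 RNA CPM (6.69 ± 0.21, adjusted p = 1e-14), beside -2.28 for Amd1. In both pairs most footprints were listed under the copy and most RNA under the gene. The Nutf2, Sap18, Eif3j1 and Hist2h2aa1 pairs were alike in this. In the Eno1 and Rpl9 pairs most footprints were under the gene too, and in the Ftl1 pair this held in replicates 1 and 3.

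With gene and copy counted together, the mean log2 ratios moved toward 0 in most pairs. A ratio of summed counts lies between the 2 single ratios, and the copies were picked among high ratios. Such a move was therefore largely fixed in advance. The joint ratios were -0.43 ± 0.07 (SD, n = 3) for Amd1 with Amd2, -0.47 ± 0.67 for Rpl10 with Rpl10-ps3, -0.51 ± 0.18 for Nutf2 with Nutf2-ps1 and -0.72 ± 0.50 for Hist2h2aa1 with Hist2h2aa2. They were 0.10 ± 0.20 for Eif3j1 with Eif3j2, 0.39 ± 0.37 for Sap18 with Sap18b, 0.71 ± 0.28 for Rpl9 with Rpl9-ps6 and -0.999 ± 0.719 for Eno1 with Eno1b. Ftl1 with Ftl1-ps1 stayed low at -2.17 ± 0.59, with -2.39, -2.61 and -1.50 in the 3 replicates. The sources used here do not say how reads with several matches were counted, so values of single genes with such copies are uncertain. Nearly all coding windows of Gapdh, Cycs, Rpl35 and Rpl29 are shared as well, but no copy of them was summed.

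**Figure D4:**
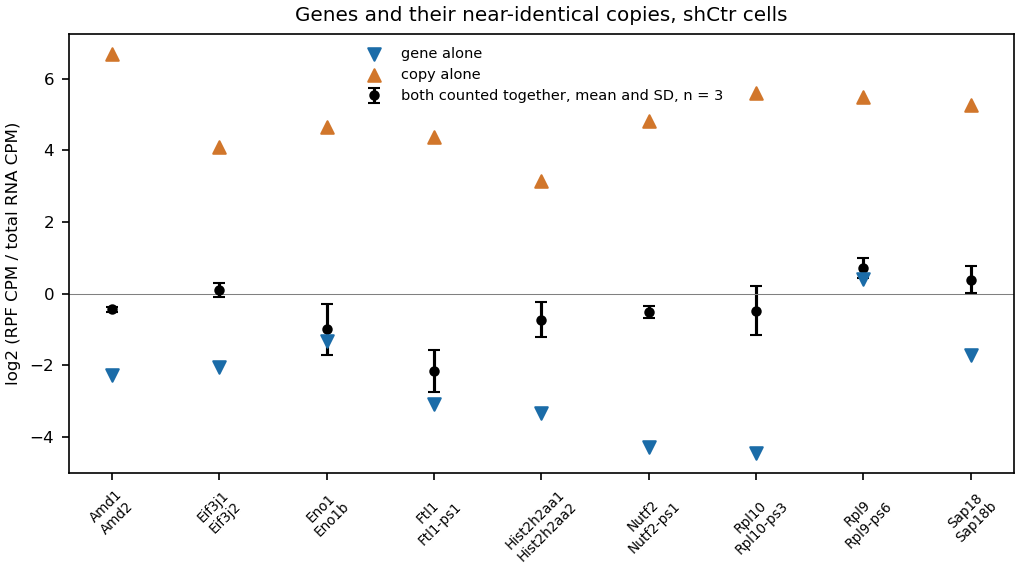
Log2 ratio of RPF CPM to total RNA CPM in shCtr cells (vertical axis) for 9 genes and their near-identical copies (horizontal axis); triangles pointing down are the gene alone, triangles pointing up the copy alone, and dots with bars the mean and SD of 3 replicates with both counted together. Every copy alone lay above 3, and the joint values lay between -2.17 and 0.71.

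To see the low end with few shared letters, called genes of one sign with under 5% shared windows, no other gene in their exons and a mean of 100 or more counts in each assay were ranked by their mean ratio. This choice was made after the values were seen, and the 20 lowest of 1197 are described without a test. B2m was first at -2.06 ± 1.06 (SD, n = 3). Emp3, a small tetraspan membrane protein, had 41.5, 27.4 and 13.3 RPF CPM against 109, 104 and 76.8 RNA CPM (-1.95 ± 0.57), and Manea, a Golgi mannosidase, had 14.6, 19.1 and 15.2 against 50.9, 52.2 and 47.4 (-1.63 ± 0.17). G6pc3, a glucose-6-phosphatase of the endoplasmic reticulum, Pmp22, a myelin and membrane protein, and Grina followed at -1.61 ± 0.32, -1.58 ± 0.31 and -1.57 ± 0.26. Of the 20 genes, 13 encoded at least 1 predicted hydrophobic segment (a 19-residue window with a mean hydropathy of at least 1.6), against 445 of the 1197, and against 1470 of 4378 genes called or not that passed the same other filters.

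Across the 8549 genes with under 5% shared windows, longer coding sequences went with higher ratios by CPM, and the order turned around per-length. The median went in steps from -0.33 for 123 genes of up to 300 nt to -0.25 (over 300 to 600 nt, 674 genes), -0.18 (to 900), -0.13 (to 1200), -0.07 (to 1800), 0.04 (to 3000) and 0.20 (over 3000, 1429 genes). In the shortest group 10.6% of genes were higher and 36.6% lower, and in the longest 20.6% were higher and 3.36% lower. In replicates 1 and 2 the lowest group was that of over 300 to 600 nt, not the shortest. Per-length, the shortest group was at 1.11 and the longest at -0.25. Replicate 1 had the flattest order, with 0.01 in the longest group against 0.29 and 0.26 in replicates 2 and 3. Among genes with no hydrophobic segment the order was the same, from -0.31 to 0.22. Genes whose transcript is mostly coding were also higher, at 0.15 where coding sequence made up more than 80% of the transcript and -0.13 where it made up 20 to 40%. How the counts divide between coding and untranslated exons was not given in the sources used here.

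Genes with hydrophobic segments had lower medians. Median ratios were 0.01 for 5719 genes with 0 segments, -0.04 for 1491 with 1, -0.13 for 743 with 2 or 3, -0.23 for 328 with 4 to 6 and -0.10 for 268 with more than 6, and per-length 0.03, -0.04, -0.18, -0.05 and -0.13. The same order was present within coding lengths over 900 to 1800 nt, at -0.03, -0.16, -0.28, -0.33 and -0.23. The 1119 genes with a segment in the first 40 residues, where signal peptides lie, had a median of -0.21, with 99 higher and 306 lower, against 0.00 for the 7430 without, with 977 higher and 1023 lower. These are descriptions over genes, and length, shared sequence and composition differ between the groups.

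**Figure D5:**
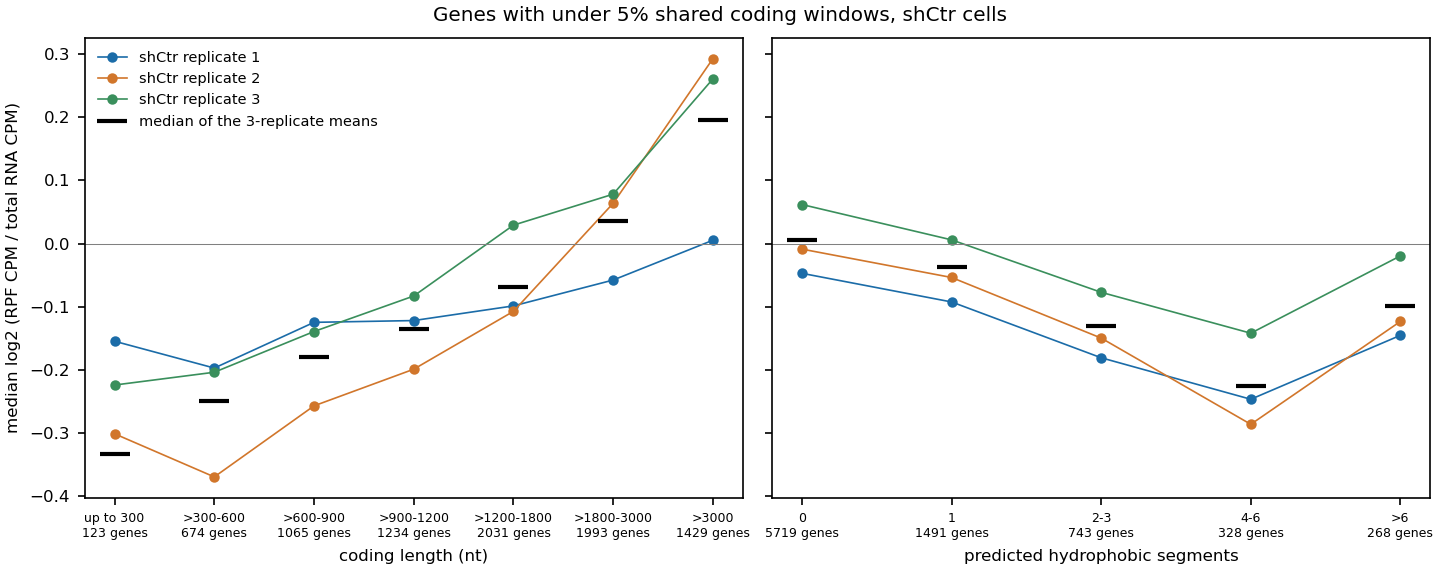
Median log2 ratio of RPF CPM to total RNA CPM (vertical axes) by coding length (left) and by predicted hydrophobic segments (right) for the 8549 genes with under 5% shared coding windows; lines are the 3 shCtr replicates and bars the median of the 3-replicate means. Medians ran from -0.33 to 0.20 with length (per-length, not plotted, from 1.11 to -0.25) and from 0.01 to -0.23 with segments before turning back to -0.10.

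Not every expressed gene could be given a ratio. RNA reached 10 counts in all 3 libraries for 11676 genes and RPF for 10640. Among the 1152 genes with RNA only, 128 had at least 100 RNA counts in each library and 17 had 0 RPF counts in all. Zfp575 had 1, 6 and 4 RPF counts against 900, 446 and 504 RNA counts. Cxcl10, a chemokine, had 64, 4 and 106 against 1116, 145 and 1101, and Zc3h11a, an mRNA export factor, had 361, 0 and 2599 against 2905, 3045 and 2813. These 3 genes failed the filter through low RPF counts in single libraries or in all.

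Beside the shOSGEP cells, 0 of 10292 genes had a ratio that differed between the 2 kinds of cells in edgeR's interaction test at an adjusted p under 0.05, with 24 at an unadjusted p under 0.05. With no difference in any gene, a share of about 0.05 of the genes would be under that p, and 24 is far fewer. The test was thus conservative here, and its 0 calls say little. A p that misses the threshold does not show that the ratios are alike. List medians over genes with 10 counts in all 12 libraries were 0.35 in shCtr and 0.46 in shOSGEP for chromatin writers, -0.56 and -0.66 for lysosomal genes, -0.56 and -0.53 for selenoproteins and -0.14 and -0.13 for cytosolic ribosomal proteins. The 11 mitochondrially encoded genes so counted were at -1.98 and -3.18, with -4.76, -2.63 and -2.20 in shOSGEP replicates 1, 2 and 3. The shOSGEP RPF library of replicate 1 had 0.0767% of its protein-coding counts on mitochondrial genes and 67.6% of all counts on ribosomal RNA. Those of replicates 2 and 3 had 0.865 and 0.748% on mitochondrial genes, within the 0.656 to 1.03% of the shCtr RPF libraries. The lower shOSGEP median thus rests largely on replicate 1.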

How the data were processed

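Total RNA and RPF libraries of B16F10 cells with shCtr were analysed as 3 replicates each. The deposited tables hold read counts per gene for all samples, as whole numbers with no normalisation by the authors. The submitters' processing notes name FastQC 0.11.9, Trim Galore 0.6.6, cutadapt and STAR 3.0 and list both GRCm38 and GRCm39. The counting step, its annotation, its use of strand, its treatment of reads with several matches and the total RNA kit are not given for these libraries in the sources used here.

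Genes needed 10 or more counts in all 6 libraries. CPM used the sum of protein-coding counts, with no scaling factor. RPF was tested against total RNA with edgeR 4.0.16 (quasi-likelihood, replicate as a block, Benjamini-Hochberg adjustment, threshold 0.05). Both libraries of a number carry 1 sample name in the labels. Deviations of same-numbered RPF and total RNA libraries from their group means correlated at r of 0.59, 0.58 and 0.49, against negative values for all other pairs. Deviations from a group mean cancel out, so the negative values are largely built in once the same-numbered values are positive. Alternatives used DESeq2 1.42.0, limma 3.58.1, other scalings, filters and leave-one-out fits. Each named member was chosen as the 2 highest and 2 lowest of its list, as 1 of 12 at either end of all genes, or from a short list of textbook genes. Exceptions are marked. The members and lists were chosen with earlier results of these data known. Coding windows were 28 bases on GRCm38 chromosomes. Replicate libraries differed by far more than sampling noise. A few named genes are not reported here.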

Additional observations from a re-analysis of the deposited data

Results flagged for a closer look

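RPF counts also appeared where RNA counts did not. In shCtr cells 116 protein-coding genes had 10 or more RPF counts in all 3 libraries and fewer than 10 total RNA counts in at least 1, and are therefore outside every ratio of the report. Of these, 53 had 0 RNA counts in all 3 libraries. Ankrd60 had 70122, 26463 and 32505 RPF counts in replicates 1, 2 and 3 with 0 RNA counts in each, which was 1.07, 0.424 and 0.191% of the RPF counts on protein-coding genes. Casr, the calcium-sensing receptor, had 17850, 157 and 34933 RPF counts, and Pappa, a secreted protease, had 6041, 1451 and 4553, both with 0 RNA counts. Together the 116 genes took 2.01, 0.667 and 0.689% of RPF counts. In the shOSGEP libraries Ankrd60 had 50157, 8652 and 6310 RPF counts and again 0 RNA counts in each. The source of these counts was not tested.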

How the results depend on the processing

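Counts of called genes stayed within 1.5 times of 3202 under other scalings, filters and tools, from 2375 to 4222, except without the replicate block (999 genes) and without replicate 2 (2035). Leave-one-out fits gave 2035 to 2673. None of the 3202 calls that were still tested changed sign under any of these, and TMM factors moved the split to 1481 higher and 1512 lower. All 999 genes without the pairing were among the 3202. For the interaction with the hairpin, 0 genes were called under every alternative, the fit with no replicate block included. These fits had 5 to 44 genes at an unadjusted p under 0.05, far fewer than a share of 0.05 of the genes. They were thus conservative too. With lengths of coding sequence and transcript taken into account and ratios centred, 11 of 29 lists changed side, as the report gives beside each, and medians were -0.12 for mitochondrial ribosomal proteins and -3.34 for mitochondrially encoded genes. The latter median was -1.98 with 100 or more counts in all libraries, -2.79 with under 5% shared windows (1 gene) and -2.60 to -2.15 with 1 replicate left out. Histones ran from -0.47 to -0.059 and the upstream-frame list from -0.06 to 0.15 over the same, and the latter was at -0.16 over genes whose exons overlap no other gene. The same length correction reversed Creld2 (-0.021), Espl1 (-0.12), Lig1 (-0.28), Mitf (0.16), Psmd4 (-0.035), Sc5d (0.65), Selenot (0.41) and Srsf2 (0.081). It compares levels per length, and the cause was not tested. The 157 named genes include genes that were not called in the main fit and so had no call to lose. Of the 157, 42 lost the call without the block, and 12, 18 and 13 without replicate 1, 2 and 3. The shared-window and exon-overlap settings were chosen after seeing the data. RPF depth limits low genes.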
